A study of Rattus norvegicus with 3 samples.

Results

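Integrins are cell surface receptors that hold cells to the extracellular matrix, and each is a pair of 1 alpha and 1 beta chain. The set described here holds 10 chains outside the leukocyte group: the collagen receptor chains Itga1, Itga2 and Itga11, the laminin receptor chains Itga3, Itga6 and Itga7, the fibronectin and vitronectin receptor chains Itga5 and Itgav, and the beta chains Itgb1 and Itgb5. They were taken by name, and 6 of the 10 had a probe that could be named through a RefSeq accession, out of 13301 genes with such a probe. Itga2, Itga6, Itga11 and Itgav had none and were not analysed here. The 6 measured chains were Itga1, Itga3, Itga5, Itga7, Itgb1 and Itgb5, and their brightest probes were well above background on all 3 arrays.

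RNA from 3 rat cell types was measured on 1 Agilent whole genome array each, with Cy3 as the only dye. COS1NR is an osteosarcoma cell line and MFH1NR a malignant fibrous histiocytoma cell line. Both came from tumors induced with the carcinogen 4-HAQO in F344 rats and, per the methods, both carry a p53 mutation. The mesenchymal stem cells (MSCs) were grown from femoral bone marrow of F344 rats by attachment to plastic, without sorting, and were kept in medium with more serum than the lines. Each tumor type is thus represented by 1 line, and the age, sex and number of animals are not given in the sources used here. With 1 array per cell type no difference could be tested, and every value below describes these 3 arrays. COS1NR and MFH1NR shared a slide and MSCs lay on a different one, so for every ratio to MSCs the slide and the cells cannot be told apart. Both ratios to MSCs also share the MSC array.

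Most integrins of connective tissue cells pair an alpha chain with Itgb1, so the alpha chains share a common partner. Itgb5 pairs with Itgav and leaves Itgb1 out. In the cell, the cytoplasmic tails bind talin and kindlin, which link the receptor to actin and to signaling through focal adhesion kinase. In marrow stromal cells these receptors are known for attachment to collagen and fibronectin and for the response to a stiff matrix.

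The RefSeq promoter table of the GRCr8 assembly held an entry for 8 of the 10 chains and for 5 of the 6 measured. The 250 bases before the start of the gene are shown for Itgb1 and Itga5, which had the same order over the 3 arrays, and for Itgb5, which was the exception among the measured chains in MFH1NR. Itgb1 lies at chr19:73602027-73602276 on the plus strand, Itga5 at chr7:136381306-136381555 and Itgb5 at chr11:80449374-80449623, both on the minus strand. Each is written from 5′ to 3′ on the strand of the gene, and capitals mark matches to the GC box GGGCGG or to the TEAD factor motif GGAATG on either strand.
Itgb1: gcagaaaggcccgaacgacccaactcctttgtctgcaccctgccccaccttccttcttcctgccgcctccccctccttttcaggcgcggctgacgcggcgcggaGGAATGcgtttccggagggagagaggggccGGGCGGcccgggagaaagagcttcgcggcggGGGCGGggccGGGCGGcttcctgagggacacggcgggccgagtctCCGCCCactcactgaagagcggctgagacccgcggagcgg
Itga5: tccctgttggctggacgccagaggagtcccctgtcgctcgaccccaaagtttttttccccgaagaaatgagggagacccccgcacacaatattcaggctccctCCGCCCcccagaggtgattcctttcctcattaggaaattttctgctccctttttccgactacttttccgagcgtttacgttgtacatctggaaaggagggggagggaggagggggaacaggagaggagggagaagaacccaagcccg
Itgb5: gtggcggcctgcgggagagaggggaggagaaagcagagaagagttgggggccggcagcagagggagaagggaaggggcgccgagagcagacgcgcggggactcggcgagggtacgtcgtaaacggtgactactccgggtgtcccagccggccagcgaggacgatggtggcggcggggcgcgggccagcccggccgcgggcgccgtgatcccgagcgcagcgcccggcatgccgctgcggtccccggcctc
The GC box had 4 matches before Itgb1, 1 before Itga5, 2 before Itga3 and 0 before Itga1 and Itgb5. It occurred in 32.4% of 27457 promoter windows of this length. The TEAD motif had 1 match each before Itgb1 and Itga3 and occurred in 11.8% of windows. A CCAAT box, which 34.3% of windows held, matched 1 time before Itga3. The TATA box TATAAA, the E-box CACGTG and the AP-1 motif TGANTCA, where N is any base, matched none of the 5 windows and occurred in 13.1%, 5.79% and 6.36% of all windows. The GC content was 71.2% for Itgb1, 74.4% for Itgb5, 64% for Itga3, 55.6% for Itga5 and 54.4% for Itga1, against a median of 52% over all windows. These matches describe the letters of the windows and are not evidence of binding.

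Intensities are given as the scanner software processed them, with the background subtracted. Ratios and log2 ratios were taken after each array was divided by its own 75th percentile, which was 589 for MSCs, 774 for COS1NR and 994 for MFH1NR. The 263 probes printed at 10 positions allowed the spread within an array to be measured, and the spread of a ratio between single spots was 0.07 in log2 for all 3 comparisons. The error model of the scanner software is wider, at about 0.20 in log2 for bright spots. A gene's brightest and next probe differed by a median of 0.28 in log2 for COS1NR over MSCs, 0.31 for MFH1NR over MSCs and 0.15 for MFH1NR over COS1NR, over 1895 genes. None of these errors covers a second culture or a second labeling.

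The chains were lower in MFH1NR than in either of the other cell types, with Itgb5 as the exception, while in COS1NR the laminin and collagen receptor chains lay near MSCs. In COS1NR, 2 of the 6 measured chains, Itga5 and Itgb5, were at least 2-fold lower than in MSCs, beside 20.0% of 9709 genes compared, and 0 were at least 2-fold higher, beside 20.7%. In MFH1NR, 5 of 6 were at least 2-fold lower than in MSCs, beside 21.6% of 9822 genes, and 0 were higher, beside 19.4%. Against COS1NR on the same slide, 5 of 6 were at least 2-fold lower in MFH1NR, beside 15.1% of 9422 genes, and 0 were higher, beside 12.4%. The median log2 ratio of the 6 chains was -0.40 for COS1NR over MSCs, -2.27 for MFH1NR over MSCs and -1.83 for MFH1NR over COS1NR, while that of all genes was 0.10, 0.02 and -0.08. Scaling by the spike-in probes of the array design cut the count for MFH1NR below COS1NR from 5 to 3, since Itgb1 and Itga5 came under 2-fold, and put Itgb5 at least 2-fold higher. The count for COS1NR below MSCs was 0 without scaling. In bulk RNA, fewer cells of a type and less RNA per cell cannot be told apart.

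**Figure D1:**
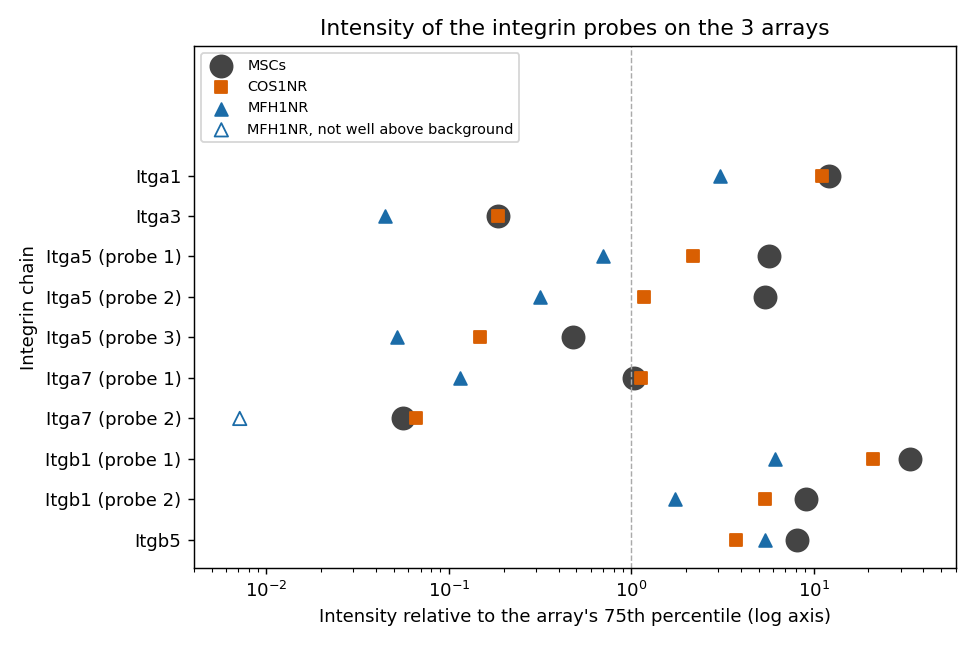
Intensity of each integrin probe on the 3 arrays, as multiples of the 75th percentile of each array, on a log axis. Circles are MSCs, squares COS1NR and triangles MFH1NR, 1 array each, and an open symbol is not well above background. MFH1NR lies lowest for every probe except that of Itgb5, and levels of different probes are not comparable.

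Among the beta chains, Itgb1 is the partner shared by the collagen, laminin and fibronectin receptors. Its brightest probe read 20001 on the MSC array, 16415 on the COS1NR array and 6090 on the MFH1NR array. After scaling, this was a ratio to MSCs of 0.625 for COS1NR and 0.180 for MFH1NR, and MFH1NR had 0.289 times the level of COS1NR. A second probe of Itgb1 is printed at 10 positions, with intensities of 5022 to 5638 on the MSC array, 4020 to 4432 on the COS1NR array and 1649 to 1790 on the MFH1NR array. These unscaled ranges did not overlap, but the 10 spots share 1 labeling and 1 array and do not measure the spread between cultures. The log2 ratios of this probe to MSCs were -0.73 ± 0.07 for COS1NR and -2.38 ± 0.06 for MFH1NR (SD from 10 spots of 1 array each). That of MFH1NR over COS1NR was -1.65 ± 0.06. Both probes of Itgb1 thus gave the order MSCs, COS1NR, MFH1NR, and both placed COS1NR within 2-fold of MSCs. Of all genes compared, 7.09% had a lower ratio of MFH1NR to COS1NR than the brightest Itgb1 probe. With spike-in scaling this log2 ratio of -1.79 came just under 2-fold.

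Itgb5, the beta chain of the vitronectin receptor with Itgav, differed from the other measured chains. Its probe read 4755 on the MSC array, 2919 on the COS1NR array and 5375 on the MFH1NR array. The ratio to MSCs was 0.467 in COS1NR and 0.670 in MFH1NR, and the ratio of MFH1NR to COS1NR was 1.43. COS1NR was thus the lowest of the 3 arrays, and 76.8% of genes had a lower ratio of MFH1NR to COS1NR. With spike-in scaling the log2 ratio between the lines went from 0.52 to 1.31, past 2-fold. The side of MFH1NR relative to MSCs depended on the scaling, since the unscaled ratio was 1.13. In COS1NR the log2 ratio of -1.10 was near the 2-fold line and came to -0.94 with scaling to the median and to -0.70 without scaling.

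Among the alpha chains, Itga1 with Itgb1 forms a receptor for collagen, mainly collagen IV and I. Its probe read 7116 on the MSC array, 8614 on the COS1NR array and 3044 on the MFH1NR array. The ratio to MSCs was 0.922 in COS1NR and 0.253 in MFH1NR, and that of MFH1NR to COS1NR was 0.275. MSCs and COS1NR differed by 0.12 in log2, less than the 0.28 between probes of a gene, and the sign changed without scaling, at 0.28, and with scaling to the median, at 0.04. MFH1NR alone stood apart.

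Itga3 and Itga7 are laminin receptor chains, the first common in epithelia and the second in muscle. Itga3 was dim and read 110 on the MSC array, 145 on the COS1NR array and 44.5 on the MFH1NR array, where the lowest intensity well above background was 17.9, 29.4 and 30.1. Its ratio to MSCs was 0.999 in COS1NR and 0.239 in MFH1NR, and the error model gave 16.9% for the MFH1NR spot. In COS1NR the log2 ratio of Itga3 took either sign with the scaling, from -0.28 to 0.39. The brightest probe of Itga7 read 612 on the MSC array, 871 on the COS1NR array and 115 on the MFH1NR array. Itga7 was level between MSCs and COS1NR, with a ratio of 1.08 that fell below 1 with spike-in scaling, and in MFH1NR its ratio was 0.111 to MSCs and 0.102 to COS1NR. Only 3.06% of genes had a lower ratio of MFH1NR to COS1NR than Itga7. A second Itga7 probe read 32.9 on the MSC array, 51.2 on the COS1NR array and 7.09 on the MFH1NR array, the last not well above background. It gave a ratio of 1.18 for COS1NR over MSCs and, for MFH1NR, bounds of at least 1.85-fold lower against MSCs and at least 2.19-fold lower against COS1NR. Such a bound sets the brighter array against the lowest scaled intensity well above background on the dimmer one.

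Itga5 with Itgb1 is the main fibronectin receptor of fibroblast-like cells, and it was lower than in MSCs by all 3 of its probes in both lines. The brightest probe read 3337 on the MSC array, 1691 on the COS1NR array and 701 on the MFH1NR array. The second had 3209, 912 and 315 in the same order, and the third 284, 115 and 51.5. All 3 gave the order MSCs, COS1NR, MFH1NR, but the size of the difference depended on the probe. The log2 ratios of COS1NR over MSCs were -1.37, -2.21 and -1.69, and those of MFH1NR over MSCs were -3.01, -4.11 and -3.22. Between the lines the probes lay closer, at -1.63, -1.90 and -1.53, and spike-in scaling brought the first to -0.84. Which transcripts each probe reads is not stated in the files.

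**Figure D2:**
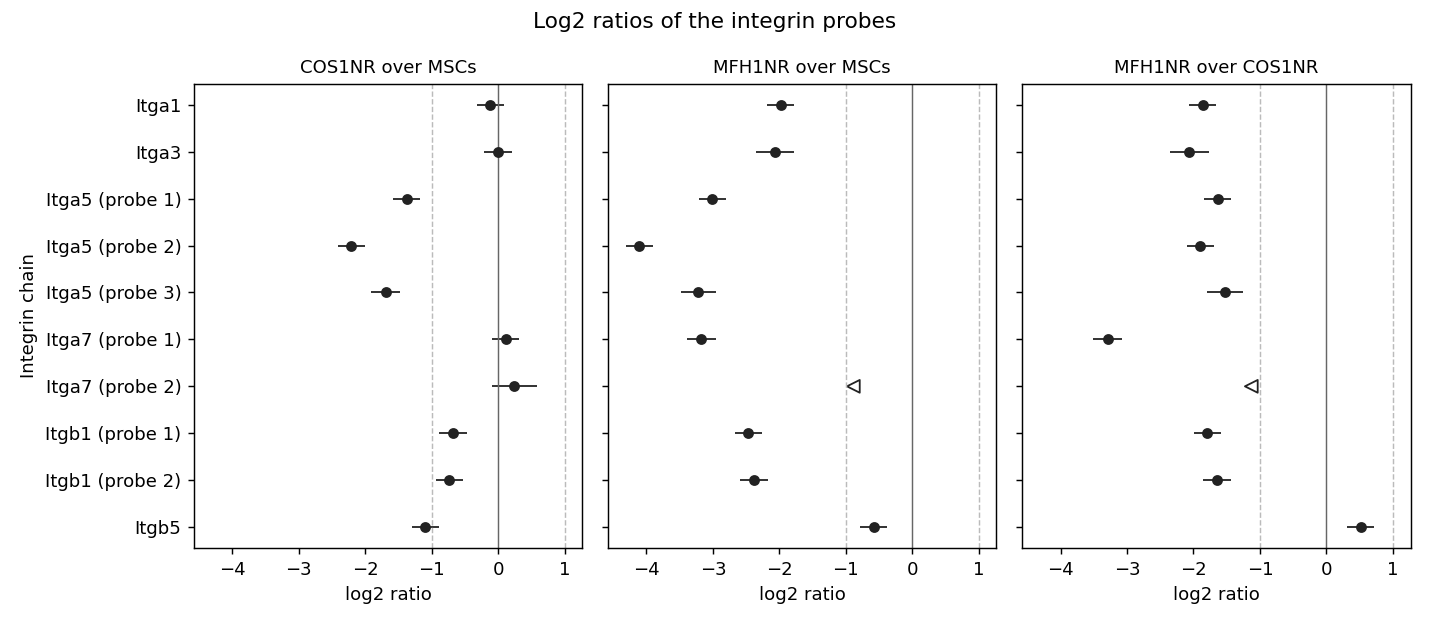
Log2 ratios of each integrin probe in the 3 comparisons, with 1 array per cell type. Bars are the error of the log2 ratio from the scanner software's error model, open triangles are bounds, and dashed lines mark 2-fold. In the right panel every probe but that of Itgb5, at 0.52, lies at -1.13 or lower.

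Since an alpha chain reaches the surface only with a beta chain, each log2 ratio was also taken relative to that of Itgb1, which removes the scaling between arrays. Relative to Itgb1, Itga5 was lower in both lines, by -0.70 in COS1NR over MSCs and -0.54 in MFH1NR over MSCs. With the second probes these were -1.47 and -1.72, and with the mean of all probes -1.05 and -1.02. Itga1 was higher by 0.56 and 0.49 and Itga3 by 0.68 and 0.41. Itga7 differed in sign between the lines, with 0.80 in COS1NR and -0.70 in MFH1NR. Itgb5 went the other way, with -0.42 in COS1NR and 1.89 in MFH1NR. Between the lines, on 1 slide, Itga1 and Itga5 stayed close to Itgb1, with differences of -0.07 and 0.16 for MFH1NR over COS1NR beside 0.15 between probes of a gene. Itga3 differed by -0.27, Itga7 by -1.50 and Itgb5 by 2.31. With the second probe of each gene, the values of Itga7 in MFH1NR were at most 1.49 over MSCs and at most 0.52 over COS1NR. That probe gives only a bound in MFH1NR, so it does not settle the sign. The value of Itga5 between the lines ranged from -0.25 to 0.21 over the alternatives. For Itga3 the sign turned with the normexp background correction, which gave 0.49.

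**Figure D3:**
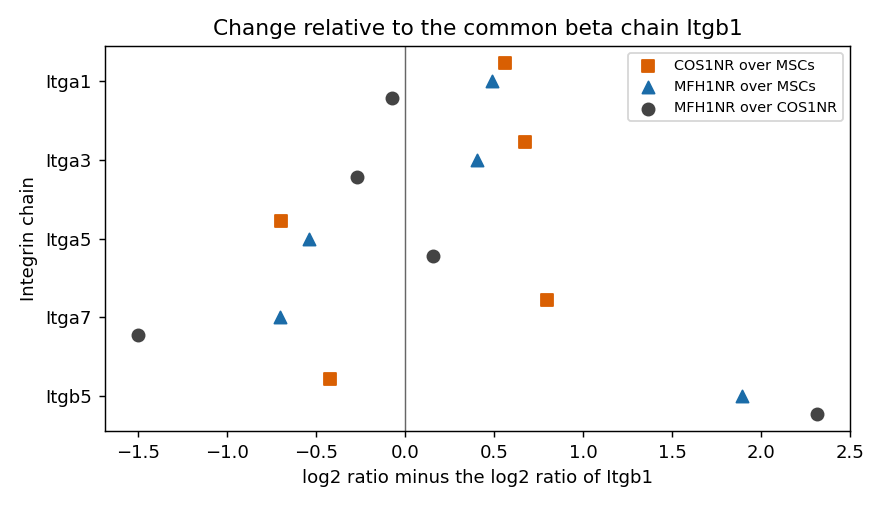
Log2 ratio of each measured chain minus that of Itgb1, by comparison, from the brightest probe of each gene and 1 array per cell type. Squares are COS1NR over MSCs, triangles MFH1NR over MSCs and circles MFH1NR over COS1NR. Itga7 lies at 0.80 in COS1NR and -0.70 in MFH1NR, and Itgb5 at 1.89 in MFH1NR.

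Likeness to Itgb1 was measured as the distance in the plane of both log2 ratios to MSCs, over 7930 genes well above background on all 3 arrays. By the brightest probes, Itga1 lay at a distance of 0.75, Itga3 at 0.79, Itga5 at 0.88, Itga7 at 1.06 and Itgb5 at 1.94. This order depended on the probe, since with the second probes of Itgb1 and Itga5 the distance was 2.27 for Itga5 and 1.84 for Itgb5. Many genes lay closer, since these chains ranked 115, 132, 162, 287 and 1525. The nearest genes were Chd2 (distance 0.06), Sorbs2 (0.09), Slc2a1 (0.10) and Tagln2 (0.11), and 13 genes lay within 0.25. With 3 arrays this distance is a description.

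**Figure D4:**
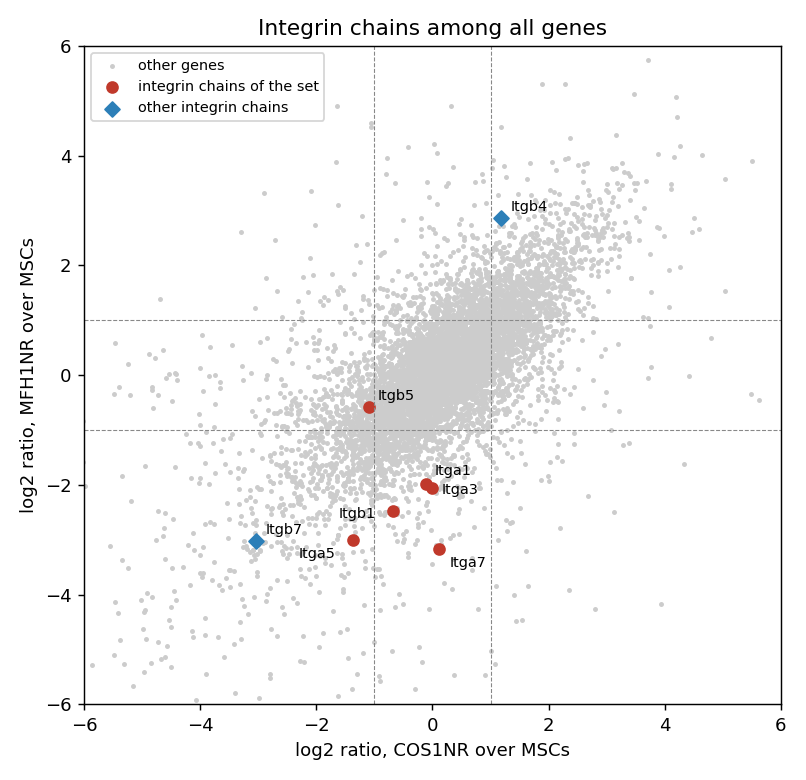
Log2 ratio of COS1NR over MSCs against that of MFH1NR over MSCs for genes well above background on all 3 arrays, with integrin chains marked, 1 array per cell type. Both axes share the MSC array, and points beyond -6 or 6 are not drawn. The measured chains other than Itgb5 lie at -1.98 or lower on the MFH1NR axis, and Itgb4 is at 1.18 and 2.87.

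Other integrin chains give the background to these values. Of 9 further chains that are not leukocyte chains, 5 had a named probe. Itgb4, the hemidesmosome chain that pairs with Itga6, read 1126 on the MSC array, 3359 on the COS1NR array and 13861 on the MFH1NR array, with log2 ratios to MSCs of 1.18 and 2.87 and of 1.68 between the lines. It was the only one of these 5 at least 2-fold higher in either line, beside 20.7% of all genes in COS1NR and 19.4% in MFH1NR. It ordered the arrays opposite to Itgb1. Itgb3, the chain of the platelet and osteoclast receptors, had an intensity of 121 in MSCs and was not well above background in the lines, so COS1NR was at least 5.42-fold lower and MFH1NR at least 6.81-fold lower. Of 5 osteoclast markers with a probe, 4 were well above background in MSCs and 3 in each line, with Calcr on none, and their summed intensity was 71.7, 2.66 and 7.43 times the 75th percentile for MSCs, COS1NR and MFH1NR. Of 4 megakaryocyte markers, 3, 1 and 2 were so in the same order, with sums of 13.9, 0.210 and 0.151, and Pf4 was well above background in MSCs only. The part of such cells in the Itgb3 signal was not tested. Itga10, a collagen receptor chain of cartilage, was well above background in MSCs only, at 41.7.

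Of 7 leukocyte chains, 5 were well above background on at least 1 array. Among them 4 were at least 2-fold lower than in MSCs in each line, beside 20.0% of all genes in COS1NR and 21.6% in MFH1NR. Itgb2, the common beta chain of leukocytes, read 1832 on the MSC array, 292 on the COS1NR array and 6.16 on the MFH1NR array, where it was not well above background. Itgb7, the beta chain of lymphocyte homing receptors, had 299, 47.8 and 61.6. The MSC array also held all 10 macrophage markers of the list used here well above background, against 5 of 10 in COS1NR and 4 of 10 in MFH1NR. Their summed intensity was 91.3 times the 75th percentile in MSCs, 8.93 times in COS1NR and 4.26 times in MFH1NR. Ptprc, Adgre1, Fcgr3a, Cd163 and Mrc1 were not well above background in either line. The part of such cells in the ratios to MSCs was not tested, while the ratio of MFH1NR to COS1NR does not use the MSC array. MSC markers were well above background for 8 of 8 genes in MSCs, 5 of 8 in COS1NR, where Eng, Thy1 and Lepr were not, and 5 of 8 in MFH1NR, where Eng, Alcam and Lepr were not. Osteoblast markers were so for 5 of 7 in MSCs, where the osteoblast factor Sp7 and the osteocyte gene Phex were not, for 4 of 7 in COS1NR, where Sp7, Dmp1 and Phex were not, and for 5 of 7 in MFH1NR, where Dmp1 and Phex were not.

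Most ligands of integrins, which are mainly matrix proteins, were at least 2-fold lower than in MSCs in both lines, while between the lines the lower and the higher ligands were similar in number. Of 28 ligands compared in COS1NR, 18 were at least 2-fold lower and 3 higher, beside 20.0% and 20.7% of all genes. Their median log2 ratio was -1.79. Of 27 in MFH1NR, 19 were lower and 4 higher, beside 21.6% and 19.4%, with a median of -1.65. Between the lines 7 of 27 were lower in MFH1NR and 8 higher, beside 15.1% and 12.4%, with a median of -0.05. Fibronectin (Fn1), the ligand of Itga5 with Itgb1, read 111058 on the MSC array, 58302 on the COS1NR array and 74196 on the MFH1NR array, with log2 ratios to MSCs of -1.32 and -1.34. The lines thus differed in Itga5 by -1.63 and in Fn1 by -0.01.

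The ligands named by the size of their mean ratio include collagen III (Col3a1), whose log2 ratio to MSCs was -8.05 for COS1NR and -4.29 for MFH1NR. Thrombospondin 2 (Thbs2), an antiangiogenic matrix protein, had -6.65 and -5.61. Periostin (Postn), a ligand of Itgav receptors, had an intensity of 16339 in MSCs and was not well above background in the lines, so COS1NR was at least 730-fold lower and MFH1NR at least 917-fold lower. The matricellular ligand Ccn1 was higher in both lines and read 1330 on the MSC array, 29968 on the COS1NR array and 25062 on the MFH1NR array.

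In the adhesion machinery, which links integrin tails to actin and to kinases, the median ratio to MSCs was lower in COS1NR than in MFH1NR. Of 35 compared in COS1NR, 21 were at least 2-fold lower than in MSCs and 1 higher, beside 20.0% and 20.7% of all genes. Their median log2 ratio was -1.10. Of 36 in MFH1NR, 16 were lower and 2 higher, beside 21.6% and 19.4%, with a median of -0.61. Between the lines 2 of 35 were lower in MFH1NR and 7 higher, beside 15.1% and 12.4%, with a median of 0.15. Fermt3, the kindlin of blood cells, had log2 ratios to MSCs of -5.38 and -4.83. The Src-family kinase Fyn had log2 ratios to MSCs of -2.27 and -3.26. The kinase Ptk2b was well above background in MSCs only, so COS1NR was at least 18.9-fold lower and MFH1NR at least 23.7-fold lower. The largest mean log2 ratios of this list were those of Itgb1bp1, which binds the tail of Itgb1, with 1.23 in COS1NR and 0.81 in MFH1NR, and of tensin 2 (Tns2), with 0.21 and 1.22. Of these, only Itgb1bp1 in COS1NR and Tns2 in MFH1NR were past 2-fold. No test compared these lists with the integrin chains.

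Of 14 tetraspanins and other lateral partners of integrins, COS1NR had 6 and MFH1NR 7 at least 2-fold lower than MSCs, beside 20.0% and 21.6% of all genes. The median log2 ratios were -0.78 and -1.02. Between the lines the median was -0.11, with 2 lower and 1 higher in MFH1NR, beside 15.1% and 12.4% of all genes. Cd81, a tetraspanin, read 11013 on the MSC array, 10.4 on the COS1NR array, not well above background, and 61.1 on the MFH1NR array. The urokinase receptor Plaur had log2 ratios to MSCs of -4.74 and -4.86 and the heparan sulfate proteoglycan Sdc4 of -2.51 and -3.34. Caveolin 1 (Cav1) had 1.63 and -0.16, and Cd47, the thrombospondin receptor, 0.42 and 0.28.

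**Figure D5:**
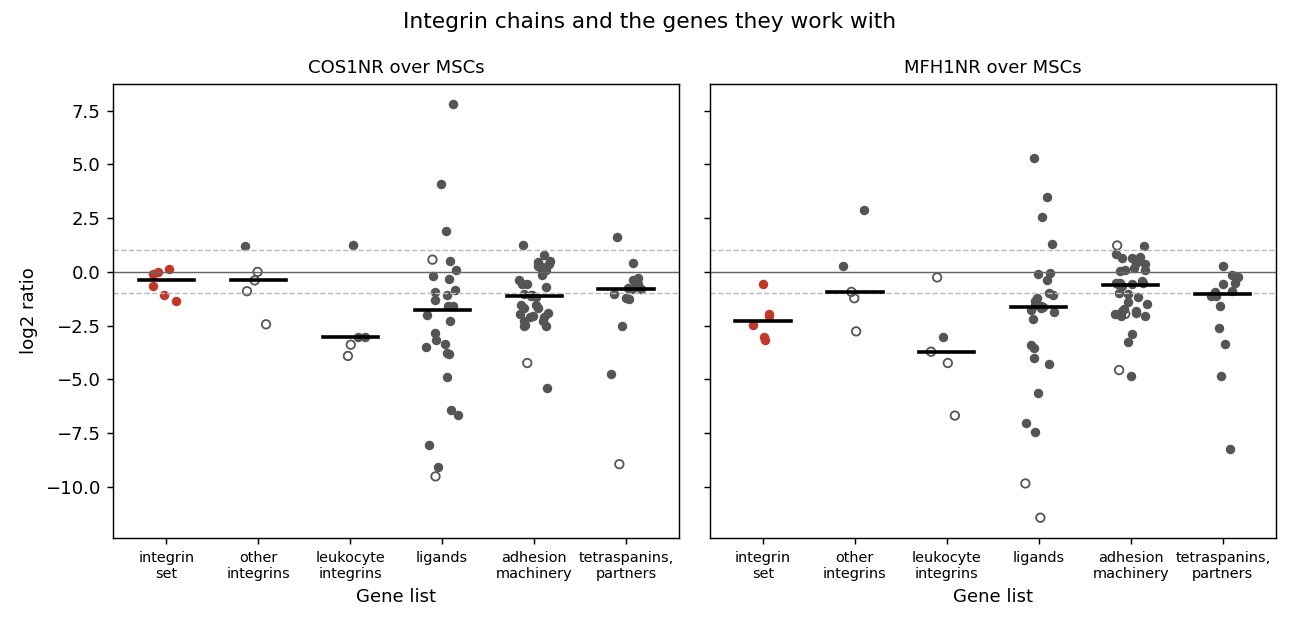
Log2 ratios to MSCs of the 6 measured chains and of 5 gene lists, each point a gene, with 1 array per cell type. Open points are bounds, thick lines are medians and dashed lines mark 2-fold. The median of the chains is -0.40 in COS1NR and -2.27 in MFH1NR, and that of the ligands is -1.79 and -1.65.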

How the data were processed

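Total RNA of MSCs, COS1NR and MFH1NR was hybridized to 1 single-color array each. The authors deposited Feature Extraction output of Agilent, where the intensity used here has the background subtracted and is not scaled from array to array. The version is 9.1 per the labels and 10.5.1.1 per the file headers, and the kits named in the labels and in the methods differ. The deposited table of the series held the same intensities and was used as an alternative.

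Each array had 43379 spots that were not controls, of which 25899 in MSCs, 24551 in COS1NR and 25246 in MFH1NR were well above background and 0 saturated. Between 187 and 217 outlier spots per array were left out, and spots of a probe were averaged as log2. The log2 of the 75th percentile of an array was subtracted from its log2 intensities. RefSeq accessions named 16745 of 40816 probes, for 13301 genes through the GRCr8 gene table, and the brightest probe stood for a gene. The 10009 genes well above background on at least 1 array were counted at 2-fold. The number of arrays limits the precision, and no test was made. Probes were annotated on an earlier build, so no probe coordinates are given.

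The members, the gene lists and the rule for named genes were chosen with earlier results of these data known. Named were all members and, per list, the 2 largest mean decreases and increases in both lines among genes with this call on all arrays, plus the largest bound. Some genes that this rule names are not reported here. Itga10, Fn1, the marker genes and the genes of the closing observations were named outside this rule, after their values were seen. The steps were tested on simulated data. Python 3.11.15 with numpy 2.4.6, pandas 2.3.3 and matplotlib 3.10.9 was used, and normexp with an offset of 50 was run in limma 3.58.1 under R 4.3.3.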

Additional observations from a re-analysis of the deposited data

Results flagged for a closer look

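Some genes lay on opposite sides of MSCs in the lines, and with 1 array per cell type the difference was not tested. The brightest probe of Itga7 had a log2 ratio to MSCs of 0.12 for COS1NR and -3.17 for MFH1NR, a difference of -3.29 for MFH1NR minus COS1NR, and with spike-in scaling COS1NR turned to -0.16. Its second probe had 0.24 and a bound of -0.89, a difference of at most -1.13. The leukocyte chain Itgad had 1.24 in COS1NR and a bound of -0.26 in MFH1NR, a difference of at most -1.50. Its probe was dim, at 21.3 on the MSC array, 66.1 on the COS1NR array and 24.2 on the MFH1NR array, the last not well above background. Caveolin 1 (Cav1), which associates with integrins in membrane microdomains, had 1.63 and -0.16, a difference of -1.79. The values of Itga7 and Cav1 near 0, and the bound of Itgad in MFH1NR, are within the median disagreement of 2 probes for a gene.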

How the results depend on the processing

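Alternatives were other scalings, the series table, other probes, filters, a floor and a 3-fold threshold, and, chosen after seeing the data, normexp on the median spot intensity and spike-in scaling. The number of chains at least 2-fold lower in COS1NR than in MSCs was 2, and it was 0 without scaling, 1 with median scaling, 1 with normexp and 0 at 3-fold. The number lower in MFH1NR than in COS1NR was 5, and with spike-in scaling it was 3, with 1 chain, Itgb5, higher. The number lower in MFH1NR than in MSCs was 4 or 5 throughout. The median log2 ratio for COS1NR over MSCs, -0.40, was -0.0047 without scaling, -0.24 with median scaling and -0.67 with spike-in scaling. That for MFH1NR over MSCs, -2.27, was -1.51 without scaling, -2.05 with median scaling, -2.11 with quantile normalization, -2.02 with the second probes, -2.13 with normexp and -1.75 with spike-in scaling. That for MFH1NR over COS1NR, -1.83, was -1.47 without scaling, -1.73 with quantile normalization, -1.75 with the second probes, -1.64 with normexp and -1.03 with spike-in scaling. Scaling moved the median of all genes as well, to 0.49, 0.77 and 0.27 for the 3 comparisons without scaling and to -0.16, 0.53 and 0.70 with spike-in scaling. Relative to it, the chains lay at -0.49, -2.28 and -1.75 with the 75th percentile and at -0.51, -2.28 and -1.74 with spike-in scaling. Scaling by 1 factor per array shifts the chains and all genes alike. This agreement was thus fixed in advance, apart from small changes through the bounds. Itga7 relative to Itgb1 between the lines went from -1.50 to at most 0.52 with the second probes. Itga7 has only a bound there, so a reversal is not shown. Of 330 values of single chains under these alternatives, 228 moved by less than the spread between replicate spots and 101 by more. That spread was 0.07 in log2, and the square root of 2 times that for values relative to Itgb1. Many of the 228 could not move. The series table holds the same intensities, and the filters and the floor do not alter the brightest probes of these chains. Scaling by 1 factor per array cancels relative to Itgb1, and some chains have only 1 probe. The 1 value left, that of Itga7 above, changed sign from past 2-fold only with its bound taken as a value. Among the others, 10 values within 2-fold also changed sign. They include that of Itga7 relative to Itgb1 for MFH1NR over MSCs, again through the bound. The spread between spots is narrower than the error model of the scanner software and the disagreement between probes. Signal over background limits Itga3 and the second Itga7 probe. Not run were normexp on the mean spot intensity and naming by the gene name column, which the files do not hold, and slide as a block, since MSCs have a slide of their own. No paired analysis was possible because the groups compared share fewer than 2 replicate numbers.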

Other observations

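The laminin chains Lama3 and Lamb3, which belong to basement membranes of epithelia, differed from one another. Lama3 read 46.2 on the MSC array, 225 on the COS1NR array and 3080 on the MFH1NR array, and Lamb3 read 346, 649 and 127 in the same order. In MFH1NR the log2 ratio to MSCs was thus 5.31 for Lama3 and -2.20 for Lamb3, beside 2.87 for Itgb4. Cd151, a tetraspanin that binds laminin receptor integrins, had log2 ratios to MSCs of -0.27 and -2.61, while the ratios of Itga3 were 0.999 and 0.239. Of 6 epithelial markers, 4 were well above background in MSCs and 1 in each line, where Epcam, Cdh1, Krt8, Krt18 and Krt19 were not. The remaining one, the tight junction gene Cldn4, was well above background on all 3 arrays and was higher than in MSCs, by a ratio of 2.84 for COS1NR and 2.33 for MFH1NR. These genes were chosen after their values were seen, and no difference was tested.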
